A study of Mus musculus with 48 samples.

Results

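The respiratory chain genes were taken as the protein-coding genes of the annotation whose symbols begin with Nduf, Sdha, Sdhb, Sdhc, Sdhd, Uqcr, Cox4 to Cox8, Atp5, mt-Nd, mt-Co, mt-Cytb or mt-Atp. The counts held 110 such genes among 49671 genes, of which 21811 are protein-coding in the annotation used for lengths. Of these members, 97 are nuclear genes and 13 lie on the mitochondrial genome (chrM). The symbol rule also takes in 15 nuclear genes for assembly factors and related proteins, so that 82 nuclear members are structural subunits. The rule used no measured value.

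The chain sits in the inner mitochondrial membrane. Complexes I and II pass electrons from NADH and succinate to ubiquinone, complex III passes them on to cytochrome c, complex IV reduces oxygen, and complex V (ATP synthase) makes ATP from the proton gradient that complexes I, III and IV build. Complex II is encoded in the nucleus alone, and each of the others joins nuclear subunits to subunits translated inside the mitochondrion from the mitochondrial genome.

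The cells were dissociated from inner cell masses (ICMs) of 3 E3.75 mouse blastocysts that carried 1 Pdgfra H2B-GFP allele, a nuclear reporter in the Pdgfra locus. The embryos came from crosses of reporter mice with C57BL/6JxCBA/J F1 hybrids, they were chosen for a mixed pattern of GFP-positive cells, and immunosurgery, which removes the trophectoderm, came before dissociation. The titles call the cells WT, and all share the reporter cross. Each of the 48 cells was 1 Smart-seq2 library, which reads whole cDNAs, and cells are named by their wells, with 6 letters of 8 wells. The labels do not tell the embryos apart, so the cells form 1 sample, no test took cells as replicates, and every SD given is the spread over cells.

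Cells were compared by the prospective epiblast (pEPI, 25 cells) and prospective primitive endoderm (pPrE, 23 cells) branches of the study's dendrogram, which was read by eye and had been built from the expression of these same cells. Total counts ran from 1718970 to 7342785 per cell, and 9202 to 11547 genes were detected. All 9 pPrE markers looked up were higher in the pPrE branch, and 7 of 8 pEPI markers were higher in the pEPI branch, with Nanog at 315 ± 221 FPKM in pEPI against 43.7 ± 73.0 FPKM in pPrE cells. FPKM is the count scaled to exon length and library size. Of the 8 trophectoderm markers, Cdx2 had counts in 3 cells and Elf5 in 5, whereas Krt8 had counts in 46 cells, with a mean of 34.3 FPKM, and Tfap2c in 38, with 24.5 FPKM in pEPI and 1.70 FPKM in pPrE cells. The summed level of the list reached 201 FPKM in pEPI and 108 FPKM in pPrE cells, with medians of 56.7 and 35.9 FPKM. The part of residual trophectoderm in the values below was not tested.

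The 13 mitochondrially encoded members were counted in all 48 cells, and their mean levels spanned 10.9 to 11119 FPKM. A stretch of chromosome 1 (chr1:24611535-24616197, GRCm38) is annotated with 7 unprocessed pseudogenes that copy a run of neighbouring mitochondrial genes. Aligned by blastn, 5 members lay over 90% of their length in such a copy at an identity of 99.71% or more: mt-Co2 (chrM:7013-7696), mt-Atp6 (chrM:7927-8607), mt-Co3 (chrM:8607-9390), mt-Nd3 (chrM:9459-9806) and mt-Nd4l (chrM:9877-10173). In mt-Co1 (chrM:5328-6872) the last 483 of 1545 bases are copied, and in mt-Nd4 (chrM:10167-11544) the first 876 of 1378.

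Reads from the copied stretch can be placed at either locus, because the copies differ from the mitochondrial genes at so few bases. The stretches of mt-Nd3 and mt-Co1 around the only substitutions found within the aligned runs are shown, with the substituted base in capitals. The change is T3C from mt-Nd3 to Gm28438 and A1066T from mt-Co1 to Gm29216, with positions counted from 1 at the first base of each mitochondrial gene. The mt-Nd3 run begins at the start of the gene (chrM:9459-9475, copy on the minus strand at chr1:24613103-24613119). The mt-Co1 run covers chrM:6381-6407 and its counterpart on the minus strand chr1:24616171-24616197, and the aligned run begins 3 bases before the substitution, so that the bases printed to the left of that point lie outside it.
mt-Nd3: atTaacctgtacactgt
Gm28438: atCaacctgtacactgt
mt-Co1: ggtctaaccggaAttgttttatccaac
Gm29216: ggattggcaggaTttgttttatccaac

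Mitochondrial genes also overlap each other, so that reads from the shared bases fit both genes. The last 7 bases of mt-Nd4l are the first 7 of mt-Nd4, and the last 43 bases of mt-Atp8 (chrM:7766-7969) are the first 43 of mt-Atp6. The end of mt-Nd4l (chrM:10147-10173) is shown with the shared bases in capitals, followed by the first 30 of the bases shared by mt-Atp8 and mt-Atp6 (chrM:7927-7956).
mt-Nd4l with mt-Nd4: caaaatctcaacctactacaATGCTAA
mt-Atp8 with mt-Atp6: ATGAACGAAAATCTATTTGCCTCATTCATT

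The 3 most abundant members carried most of the mitochondrial signal. For mt-Nd1, a membrane subunit of complex I (chrM:2751-3707), levels ran from 6997 to 15625 FPKM over cells with a mean of 11119 ± 2089 FPKM. The catalytic subunit of complex IV, mt-Co1, stood at 7802 ± 1371 FPKM, and mt-Cytb, the cytochrome b of complex III, at 6748 ± 1283 FPKM. Together these 3 held 83.7% of the counts on the 13 members. No near-identical copy of mt-Nd1, mt-Nd2, mt-Nd5, mt-Nd6 or mt-Cytb was found among the annotated transcripts.

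The next group held other complex I subunits of the same membrane arm. The partly copied mt-Nd4 had 1480 ± 288 FPKM, mt-Nd5 had 1147 ± 269 FPKM and mt-Nd2 had 1100 ± 267 FPKM. The light-strand gene mt-Nd6 had 413 ± 109 FPKM. It overlaps mt-Nd5 on the opposite strand by 14 bases. Since Smart-seq2 keeps no strand, its reads cannot be told from those of RNA of the other strand. Divided by the bases outside the chromosome 1 copy alone, the counts of mt-Nd4 come to 4062 ± 791 FPKM and those of mt-Co1 to 11351 ± 1994 FPKM. This takes every counted read to come from outside the copied bases, so that both values are upper limits. At these limits mt-Co1 would stand beside mt-Nd1 and mt-Nd4 well above mt-Nd5.

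The 5 members with a copy over nearly their whole length were all below the uncopied genes in the mean, mt-Atp8 apart. The level of mt-Nd3 was 368 ± 121 FPKM, of mt-Atp6 192 ± 38.5 FPKM, of mt-Co2 140 ± 28.1 FPKM and of mt-Co3 118 ± 20.1 FPKM. The lowest was mt-Nd4l at 10.9 ± 4.62 FPKM, from 3.07 to 28.1 over cells, a mean 1022 times below that of mt-Nd1. Together these 5 genes took 1.23% of the mitochondrial member counts. The mitochondrially encoded subunits of complex IV thus differed 55.6 times between mt-Co1 and mt-Co2.

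The 7 chromosome 1 pseudogenes had counts in every cell, from 32.4 ± 12.4 FPKM for Gm28438 to 197 ± 31.9 FPKM for Gm28437, the copy of mt-Co3. The copies of the 5 nearly fully copied members summed to 73759 counts against 88388 on those members, and all 7 copies to 95048. The counter's setting for reads with several placements is not given in the sources used here, and how much of the low level of the 5 genes comes from such reads was not tested. The short gene mt-Atp8, at 57.7 ± 15.4 FPKM, begins in the 230 bases between mt-Co2 and mt-Atp6 and runs into the latter. The corresponding interval between the chromosome 1 copies spans 233 bases that hold no annotated copy, and its sequence was not read here. The order of the copied genes, mt-Atp8 and mt-Nd4 among the 13 should therefore be treated as uncertain.

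**Figure D1:**
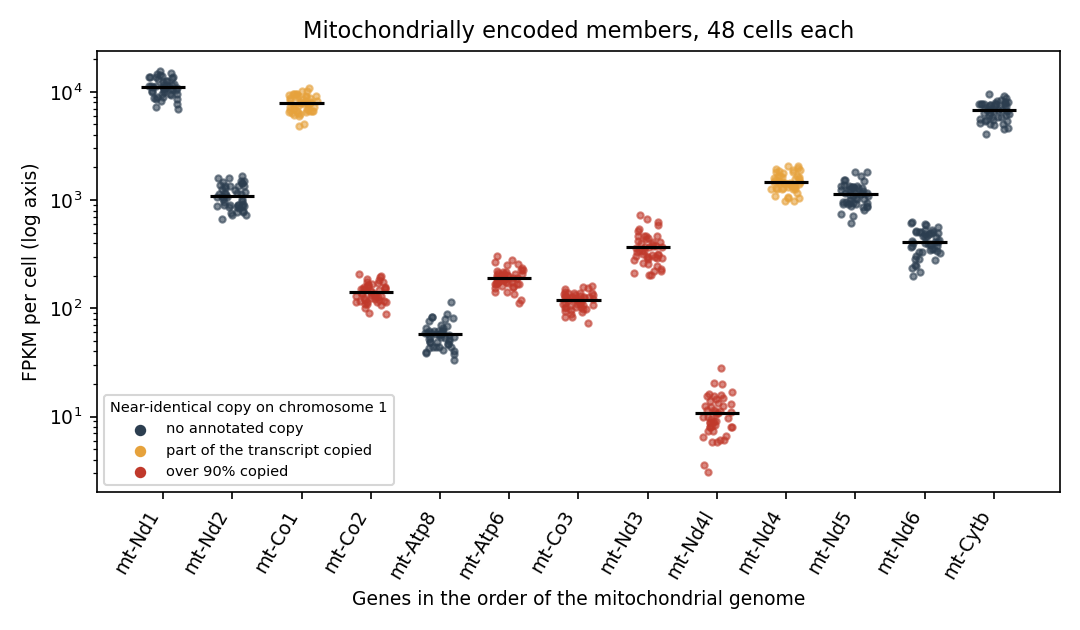
Level of each mitochondrially encoded member in each of the 48 cells, in FPKM on a log axis, with genes in the order of the mitochondrial genome. Black lines are means, and colours give how much of the transcript has an annotated near-identical copy on chromosome 1. The 5 genes in red lie between 10.9 and 368 FPKM in the mean, the uncopied genes other than mt-Atp8 between 413 and 11119 FPKM.

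Nuclear members were counted broadly. Of the 97, 94 had a count in at least 1 cell and 78 had counts in all 48 cells, and these 78 included 75 of the 82 subunits. A mean of at least 5 FPKM was reached by 88 nuclear members, 76 of them subunits. The median level over nuclear subunits was 156 FPKM and the median over mitochondrially encoded members 413 FPKM, 2.65 times higher, although several of the latter lay below most nuclear subunits. The members took 6.55% of all counts, with 2.75% on nuclear and 3.80% on mitochondrially encoded genes.

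In complex I, all 37 nuclear subunits passed 5 FPKM, from 17.3 FPKM for Ndufs1, the largest subunit with several iron-sulphur clusters, to 375.5 FPKM for the accessory subunit Ndufa2, with a median of 125 FPKM. The assembly factors of complex I were lower. The 8 Ndufaf genes spanned 7.39 to 53.4 FPKM, and only Ndufaf8 of them was counted in every cell.

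Complex II has only nuclear genes. The flavoprotein Sdha had 84.9 ± 21.4 FPKM, the iron-sulphur subunit Sdhb 95.3 ± 26.2 FPKM and the membrane anchors Sdhc and Sdhd 38.3 ± 12.004 and 262 ± 78.0 FPKM. Sdhd differed from Sdhc by more than the spread over cells of either gene. Sdha and Sdhb differed by less than the spread over cells.

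The 8 nuclear subunits of complex III ran from the core protein Uqcrc1 at 111 ± 21.9 FPKM to the small subunit Uqcr10 at 809 ± 241 FPKM. By exon union the highest nuclear subunit of complex IV was Cox8a at 1033 ± 284 FPKM and the lowest of those over 5 FPKM was Cox7a1 at 35.5 ± 25.7 FPKM. In complex V the catalytic beta subunit Atp5b stood at 648 ± 77.6 FPKM, and Atp5l, a subunit of the membrane part, at 7.11 ± 2.43 FPKM. Atp5b also varied least over cells of all nuclear members of at least 5 FPKM, with a coefficient of variation of 11.97% against a median of 28.1% over these members and 59.3% over all protein-coding genes of that minimum. Which subunit is highest depends on the length used. By principal transcript the highest were Ndufa4 in complex I (692 FPKM), Uqcrb in complex III (1259 FPKM) and Cox4i1 in complex IV (1249 FPKM), and Cox8a had 1163 FPKM. Atp5l has an exon union of 6443 bases and a principal transcript of 544, and its level was 84.2 FPKM by the latter.

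**Figure D2:**
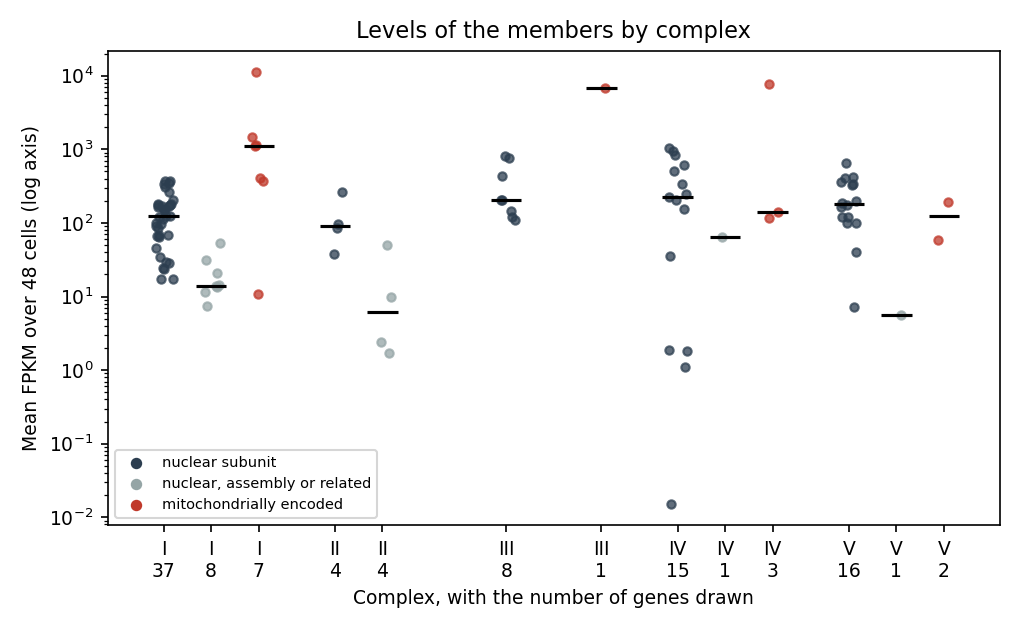
Mean level of each member over the 48 cells, in FPKM on a log axis, by complex and genome. Every point is a gene with at least 1 count, black lines are medians, and the number of genes drawn stands under each column. Nuclear subunits centre between 90.1 and 339 FPKM per complex when those under 5 FPKM are left out, while the mitochondrially encoded genes spread from 10.9 to 11119 FPKM.

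Some nuclear members also have near-identical copies elsewhere. At an identity of at least 98%, 6 of the 97 had over 50% of the principal transcript in a copy: Ndufs3, Uqcrb, Cox7c, Atp5g2, Atp5h and Atp5l, named for this share alone. Their best copies were processed pseudogenes, which had from 267 counts for the copy of Atp5l to 1737 for that of Atp5h, and Atp5h matched 70 genes in all. The levels of these 6 genes are uncertain by an amount that was not measured. For 2 nuclear members, the assembly factors Ndufaf2 and Sdhaf1, more than 50% of the exon bases overlap a gene on the opposite strand, and since Smart-seq2 keeps no strand their reads cannot be told apart.

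Several subunits come as alternative isoforms that tissues use differently, and in ICM cells a single form held nearly all of the expression in each family but Cox7a and Atp5g. The ubiquitous Cox4i1 had 617 ± 101 FPKM, while the hypoxia-linked Cox4i2 had 3 counts, all in well C2. Cox6a1 had 951 ± 204 FPKM, and its heart and muscle partner Cox6a2 had no count. Cox6b1 had 829 ± 199 FPKM, and the testis form Cox6b2 had counts in 13 of 48 cells (27.1%, 95% interval 15.3% to 41.8%), up to 17.3 FPKM. Cox6c, which has no such partner among the members, had 245 ± 51.3 FPKM.

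Cox7b had 339 ± 113 FPKM, and Cox7b2 had 151 counts in 4 cells (A5, B5, C5 and E8), up to 36.3 FPKM. All 4 cells belonged to the pPrE branch, which holds 23 of the 48 cells. So few cells carry no comparison of the branches, and the share of other rare genes counted in a single branch was not measured. Cox8a was accompanied by Cox8c in 2 cells only, D3 and E2, and by no count of Cox8b, the muscle form. Ndufa4, held to be a complex IV subunit but placed by its symbol among the 37 of complex I in every count and sum given here, had 306 ± 89.9 FPKM, and Ndufa4l2 had no count. For the 3 genes without counts the limit that 3 counts set over all 48 cells is 0.0158 CPM, counts scaled to the library total. Intervals and limits cover counting error only, and the interval of a share treats the cells as independent draws.

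The exception in complex IV was Cox7a1, known as the heart and muscle form of Cox7a (chr7:30184144-30186078). It was counted in 46 of 48 cells and held 6.61% of the summed level of Cox7a1 and Cox7a2, the liver form, which had 502 ± 114 FPKM. The supercomplex factor Cox7a2l had 64.9 ± 20.9 FPKM. For the c subunit of complex V, which 3 genes encode as the same mature protein, Atp5g3 led at 122 ± 24.2 FPKM, with Atp5g1 at 101 ± 26.1 and Atp5g2 at 39.9 ± 10.4 FPKM. The size of the lead of Atp5g3 depends on the length used. By exon union Atp5g3 and Atp5g1 differed by less than their spread over cells, at 46.4% and 38.4% of the family, and Atp5g2 was lower than both by more than the spread of each. By principal transcript Atp5g3 took 65.2%, Atp5g1 18.6% and Atp5g2 16.2%.

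The summed levels gave each cell a balance of the genomes. The 97 nuclear members summed to 17674 ± 2239 FPKM, from 12533 in F3 to 24095 in B5. The 13 mitochondrially encoded members summed to 30695 ± 4930 FPKM, from 20801 in C6 to 38933 in E8. As a share of counts on members, the mitochondrially encoded genes took between 47.9% in D1 and 67.9% in F3, with a median of 57.9%. The cell with the lowest share, D1, had the lowest total count, and F3 had the lowest total of the pEPI cells at 2052874 counts.

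The balance differed by complex. In complex I the mitochondrial to nuclear ratio of summed FPKM was 2.93 ± 0.63, with 7 mitochondrial genes against 46. In complex III it was 2.44 ± 0.48, from mt-Cytb alone against 8 genes, and in complex IV 1.61 ± 0.46, from 3 genes against 18. In complex V it was 0.0672 ± 0.0123, from the copied mt-Atp6 and from mt-Atp8 against 17 genes. The ratio of complex V was below that of every other complex in every cell, since its highest value was 0.104 and the lowest of complex IV 0.960. It rests on genes whose reads can fit another locus or gene, as described above. The ratio of complex I does so in part, through mt-Nd3, mt-Nd4l and mt-Nd4, and that of complex IV through mt-Co1, mt-Co2 and mt-Co3. For mt-Cytb of complex III no such copy was found. The part of such reads in the order of the complexes, whether divided between loci or left out by the counter, was not tested.

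Mitochondrially encoded members varied together over cells. Over their 78 pairs the median Pearson correlation of log2(FPKM + 1) was 0.49, and every pair was above 0. Over 2628 pairs of nuclear subunits of at least 20 FPKM the median was 0.14, with 72.5% of pairs above 0, and over pairs of other protein-coding genes of that minimum it was 0.00, with 49.7% above 0. These correlations over 48 cells share the library and its size factor and are given as descriptions.

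Across the genomes the relation was weak. The nuclear and the mitochondrial sums had a correlation of 0.19 over the 48 cells (Spearman's rho 0.23), 0.32 over the 29 cells with Y-linked counts and -0.13 over the 19 without. It rested on few cells, since it was 0.44 without the 8 cells of letter F, among them F3, and 0.08 without letter A. Within the nuclear genome the sums of complexes I and IV had a correlation of 0.82 and those of complexes III and IV of 0.69, while complex II had 0.10 with complex I and at most 0.23 with any other complex. The nuclear sum also went with depth, at -0.39 with the log2 total count, and with the summed cytosolic ribosomal protein genes at 0.84. The mitochondrial sum had a correlation of 0.65 with the ribosomal RNA mt-Rnr2. The part of depth and of the library size in these relations was not tested.

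**Figure D3:**
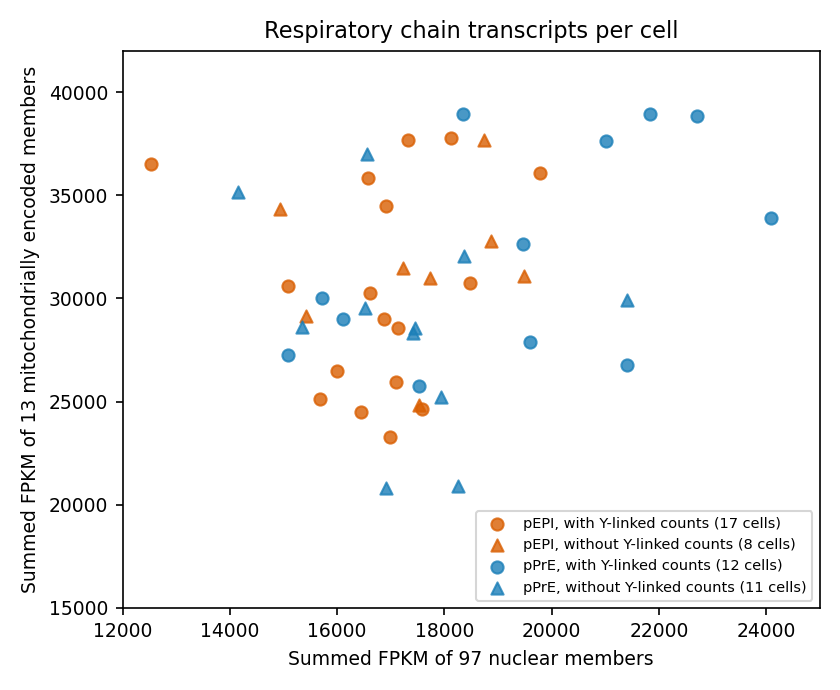
Summed FPKM of the 13 mitochondrially encoded members against that of the 97 nuclear members, 1 point for each of the 48 cells, with axes that do not start at 0. Colours give the branch and shapes the presence of Y-linked counts. The points form a broad cloud with a correlation of 0.19, and the branches overlap on both axes.

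Between the branches, the nuclear members had a slightly higher mean sum in pPrE cells, by less than the spread over cells, and the mean sums of the mitochondrially encoded members were close. The nuclear sum ran from 12533 through a median of 17105 to 19788 FPKM in pEPI cells and from 14144 through 17945 to 24095 FPKM in pPrE cells. The branches overlapped over most of this range, and the highest cells were pPrE cells. The means were 18399.8 ± 2639.7 FPKM in pPrE and 17007 ± 1570 FPKM in pEPI cells, a log2 ratio of 0.11, and a pPrE cell had the higher sum in 63.7% of pairs of cells. The difference was smaller than the SD of either branch. It was 0.04 without the 8 cells of letter B, 0.21 within the cells that had Y-linked counts and -0.02 within those that had none. Within single well letters it ran from -0.11 to 0.38, with only 2 pPrE cells in letter C and 2 pEPI cells in letter D. Letters A, B and E hold only cells with Y-linked counts and letter D only cells without. Leaving out letters and splitting by Y-linked counts are thus not separate checks.

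The mitochondrial sum was 30592.5 ± 5339 FPKM in pPrE and 30790.2 ± 4632 FPKM in pEPI cells, a log2 ratio of -0.01, whose sign turned under several settings. The ratio of the sums within a cell, in which the scaling by library size cancels, was 1.68 ± 0.33 in pPrE and 1.83 ± 0.34 in pEPI cells. Its log2 ratio was -0.12, with -0.13 and -0.11 within the cells with and without Y-linked counts. Without the 8 cells of letter D it was -0.06, and within single well letters it ran from -0.33 in D to 0.12 in A. This difference too was smaller than the spread over cells. The ratio of the sums had a correlation of 0.19 with the log2 total count over all cells. The correlation was -0.13 within the cells with and 0.54 within the cells without Y-linked counts, and the part of depth was not tested.

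By gene, 72 of 88 nuclear members of at least 5 FPKM were higher in pPrE cells, with a median log2 ratio of 0.11, where 49.5% of the 5394 protein-coding genes of that minimum were higher and the median was 0.00. Abundant genes leaned the same way, since 61.9% of 567 genes of at least 100 FPKM were higher in pPrE cells with a median of 0.05, against 44 of 55 nuclear members and 0.10. The cytosolic ribosomal protein genes, 86 of 90 higher with a median of 0.15, leaned further. Within the cells with Y-linked counts 73 of the 88 members were higher in pPrE, and within the cells without them 45. The median was 0.15 in the former and 0.01 in the latter. It was 0.05 without the 8 cells of letter B and 0.17 without those of letter E.

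Only 1 nuclear member of 88 was higher in pPrE by over 1.5-fold, where 7.47% of all protein-coding genes were. By that fold 0 of 88 were lower, where 11% of all genes were. Abundant genes passed the fold less often. Of 567 genes of at least 100 FPKM, 18 were higher and 38 lower by that fold, and of 55 such nuclear members 0 were either. No nuclear member differed between the branches by more than the larger SD, and the largest difference was 0.861 of that SD, in Ndufb6. None of the 13 mitochondrially encoded members passed the fold, with log2 ratios from -0.11 for mt-Nd5 to 0.15 for mt-Nd3.

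The member past the fold was Cox7a1. Its level ran from 0 through a median of 25.2 to 99.9 FPKM in pEPI cells and from 10.8 through 37.4 to 115 FPKM in pPrE cells. The ranges overlapped, and the 2 cells with no count were pEPI cells. The means were 43.1 ± 27.4 FPKM in pPrE and 28.6 ± 22.3 FPKM in pEPI cells, with a log2 ratio of 0.59 (95% counting interval 0.50 to 0.69). The ratio was 0.63 and 0.62 within the cells with and without Y-linked counts and stayed between 0.52 and 0.68 as each well letter was left out, on both sides of the fold.

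The other 4 members with the largest ratios toward pPrE were 3 assembly factors of complex I and an accessory subunit. Ndufaf2 had a log2 ratio of 0.45, Ndufaf6 of 0.44 and Ndufaf5, which modifies a core subunit, of 0.38. These 3 genes had mean levels of 13.8 to 31.2 FPKM, and the ratio of Ndufaf6 was 0.10 without the 8 cells of letter D. Within the cells with and without Y-linked counts the ratio was 0.52 and 0.24 for Ndufaf2, 0.15 and 0.35 for Ndufaf6, and 0.13 and 1.15 for Ndufaf5. Ndufb6 was at 413 ± 101 FPKM in pPrE and 326 ± 81.8 FPKM in pEPI cells, a log2 ratio of 0.34, and was higher in pPrE in 77.0% of pairs of cells. Its ratio was 0.49 and 0.09 within the cells with and without Y-linked counts.

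Toward pEPI the largest ratios belonged to Ndufaf3 at -0.57 and Ndufaf4 at -0.56, assembly factors that act together early in complex I assembly. Ndufaf3 had counts in all but 1 pEPI cell and in 17 of the pPrE cells, with means of 13.8 ± 10.3 and 9.29 ± 8.40 FPKM. Without the cells of letter E the ratio of Ndufaf3 was -0.37, and without those of letter A that of Ndufaf4 was -0.35. Within the cells with and without Y-linked counts the ratios were -0.59 and -0.47 for Ndufaf3 and -0.69 and -0.48 for Ndufaf4. The core subunit Ndufv2 followed at -0.25, with 197 ± 44.8 FPKM in pEPI and 165 ± 49.0 FPKM in pPrE cells. Ndufa12 at -0.16 and Ndufa6 at -0.15 were the next, and without the cells of letter B and of letter D these were -0.31 and -0.08. Within the cells that had Y-linked counts the ratios of Ndufa12 and Ndufa6 were 0.00 and -0.04, and within those that had none -0.36 and -0.34.

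By complex, the median log2 ratio of the nuclear subunits of at least 5 FPKM was 0.11 in complex I, 0.19 in complex II, 0.05 in complex III, 0.15 in complex IV and 0.09 in complex V. Within the cells without Y-linked counts these medians were -0.03, 0.11, -0.08, 0.01 and 0.01, and within those with them 0.18, 0.19, 0.11, 0.32 and 0.15. In complexes II and IV all such subunits, 4 of 4 and 11 of 11, were higher in pPrE cells, but 3 and 6 of them were so in both the cells with and the cells without Y-linked counts. In complex II, Sdhc had a log2 ratio of 0.30 and Sdhb of 0.28, and Sdha and Sdhd of 0.03 and 0.10. In complex III, 5 of 8 were above 0. Only 33 of the 76 nuclear subunits were higher in pPrE cells in both the cells with and the cells without Y-linked counts.

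**Figure D4:**
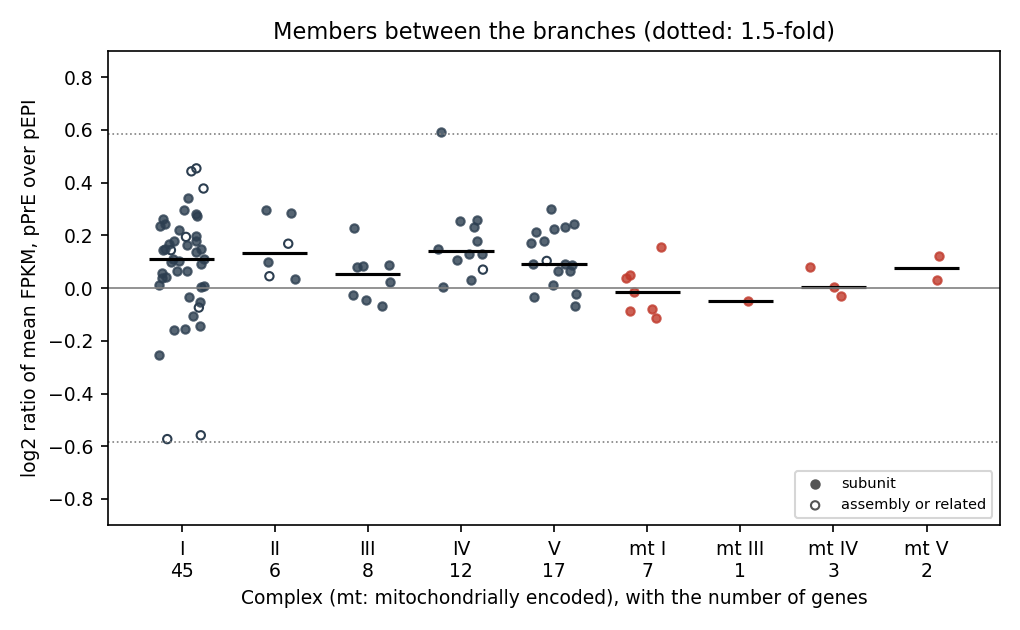
Log2 ratio of mean FPKM, pPrE over pEPI, for each member of at least 5 FPKM, by complex. Filled points are subunits, open points assembly factors and related proteins, black lines medians and dotted lines 1.5-fold. Most nuclear points lie between 0 and the upper dotted line, which 1 member, Cox7a1 at 0.59, crosses, and the mitochondrially encoded points lie around 0.

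Genes around the chain, from a list of other mitochondrial functions, were set beside all protein-coding genes of at least 5 FPKM. Of the latter, 49.5% were higher in pPrE cells, 7.47% higher by over 1.5-fold and 11% lower by that fold. Of 18 genes of mitochondrial DNA replication and transcription, 10 reached 5 FPKM, 1 of them higher in pPrE cells, with a median log2 ratio of -0.22 and none past 1.5-fold. Tfam, which packages the mitochondrial genome, was at -0.09, and the polymerase Polrmt at 0.52. Of 15 genes of mitochondrial RNA processing, 8 were higher in pPrE, and Grsf1, an RNA-binding protein of mitochondrial RNA granules, was lower past the fold at -1.03. Of 77 mitochondrial ribosomal protein genes, 43 were higher in pPrE, with a median of 0.03 and none past the fold. Of 17 genes for mitochondrial content, 8 were higher, with a median of 0.00. Of 27 electron carriers and assembly factors of complexes III to V, 15 were higher, and Tmem70, needed for ATP synthase assembly, was lower past the fold, at 65.1 ± 30.2 FPKM in pPrE against 126 ± 39.7 FPKM in pEPI cells. Of 6 regulators of nuclear subunits, 3 were higher in pPrE, with a median of 0.08. Gabpb1 was at 0.53, Pprc1 at 0.20 and Nrf1 at 0.16, Gabpa at 0.00, and Myc and Esrrb, both also known for pluripotent cells, were lower past the fold at -1.36 and -0.71. Esrrb is also among the pEPI markers looked up above, so its value is not a separate result. The mitochondrial ribosomal RNAs were at 0.37 for mt-Rnr1 and 0.11 for mt-Rnr2.

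Promoters of nuclear members were searched for short words known from respiratory genes. RefSeq windows from 250 bases before to 50 after the start (GRCm38.p6) matched 78 of the 97 nuclear members by symbol, and windows of 17492 protein-coding genes were the comparison, of which 4302 had at least 5 FPKM. The NRF1 core word CGCATGCG, the same on both strands, was in 11 of 78 members (14.1%), in 2.77% of all genes and in 5.58% of those of at least 5 FPKM. The YY1 word AAGATGGC on either strand was in 10 members (12.8%), in 3.57% of all and in 6.997% of expressed genes. The ETS word CCGGAAG on either strand was in 21 members (26.9%), in 12.9% of all and in 27.3% of expressed genes. The Sp1 word GGGCGG on either strand was in 37 members (47.4%), in 49.2% of all and in 69.7% of expressed genes, and TATAAA on either strand was in 8 members (10.3%), in 14.8% of all and in 7.74% of expressed genes. The ETS and YY1 words can overlap through the letters AAG, and no word contains another.

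Windows of 30 bases are printed for the member of complexes III, IV and V with the highest level among those that hold the NRF1 word, with the word in capitals, each on the minus strand: Cox6a1 (chr5:115349101-115349130, word from base -161), Uqcr11 (chr10:80406808-80406837, from base -5) and Atp5k (chr5:108434430-108434459, from base -49). The complex I subunit Ndufs6 (chr13:73328433-73328462, minus strand, from base 33) is printed as the highest of the members with the YY1 word. These 4 genes were chosen for their words and levels and not for their ratios.
Cox6a1: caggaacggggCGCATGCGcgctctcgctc
Uqcr11: gatcgccttcaCGCATGCGctatacgtctg
Atp5k: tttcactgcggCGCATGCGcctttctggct
Ndufs6: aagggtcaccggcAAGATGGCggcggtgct

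The words did not go with the branch ratios by much. Members of at least 5 FPKM with the NRF1 word had a median log2 ratio of 0.09 (11 genes) and those without it 0.12 (62 genes). The medians were 0.12 and 0.10 for the YY1 word and 0.17 and 0.09 for the ETS word. A word in a window describes the sequence alone.

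Of the nuclear members, 3 lie on the X chromosome, and their levels were compared by the counts on 4 Y-linked genes (Kdm5d, Uty, Ddx3y and Eif2s3y). The 29 cells with Y-linked counts had 242 to 1298 such counts, 17 of them pEPI and 12 pPrE cells, and the 19 cells without had at most 1, with 8 pEPI and 11 pPrE cells. Embryo and sex cannot be told apart here. Ndufa1, a small membrane subunit of complex I (chrX:37187588-37191163), ran from 63.6 through a median of 266 to 664 FPKM in cells with Y-linked counts and from 241 through 453 to 809 FPKM in cells without. Cells without Y-linked counts were higher in 87.1% of pairs of cells, although the ranges overlapped.

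The mean of Ndufa1 was 467 ± 133 FPKM in cells without Y-linked counts and 273 ± 136 FPKM in cells with them, a ratio of 1.71 and a difference larger than either SD. The ratio was 1.98 within pEPI cells and 1.45 within pPrE cells. Over all cells, Ndufa1 was the only X-linked member past 1.5-fold, where 9.55% of all protein-coding genes and 24.3% of 181 X-linked genes with counts in both classes were. Cox7b (chrX:106015700-106022450) had 389 ± 122 against 306 ± 94.3 FPKM, a ratio of 1.27, with 1.51 within pEPI and 1.05 within pPrE cells. Ndufb11 (chrX:20615326-20617619), an accessory subunit of complex I, had 168 ± 47.6 against 148 ± 52.9 FPKM, a ratio of 1.14. Over all cells the differences of Cox7b and Ndufb11 were smaller than the spread over cells. Within pEPI cells Cox7b had 403 ± 132 FPKM without and 266 ± 65.4 FPKM with Y-linked counts, a difference larger than either SD. Within pPrE cells Ndufa1 had 458 ± 154 FPKM without and 317 ± 155 FPKM with them, a difference smaller than either SD.

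The X-linked genes together had a median ratio of 1.13 and autosomal genes of 1.01, with 64.1% and 50.9% of them higher in cells without Y-linked counts. The 73 autosomal nuclear subunits had a median of 0.97, with 27 of 73 higher in cells without Y-linked counts and none past 1.5-fold. The mitochondrially encoded members had a median of 0.94, with 3 of 13 higher. Within pPrE cells, 0 of 13 mitochondrially encoded members and 14 of 73 autosomal subunits were higher in cells without Y-linked counts. Within pEPI cells 8 of 13 and 42 of 73 were. Of all autosomal protein-coding genes, 51.3% were so within pPrE cells and 47.7% within pEPI cells. The mitochondrially encoded members varied together over cells, so that their count is not one of independent genes.

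**Figure D5:**
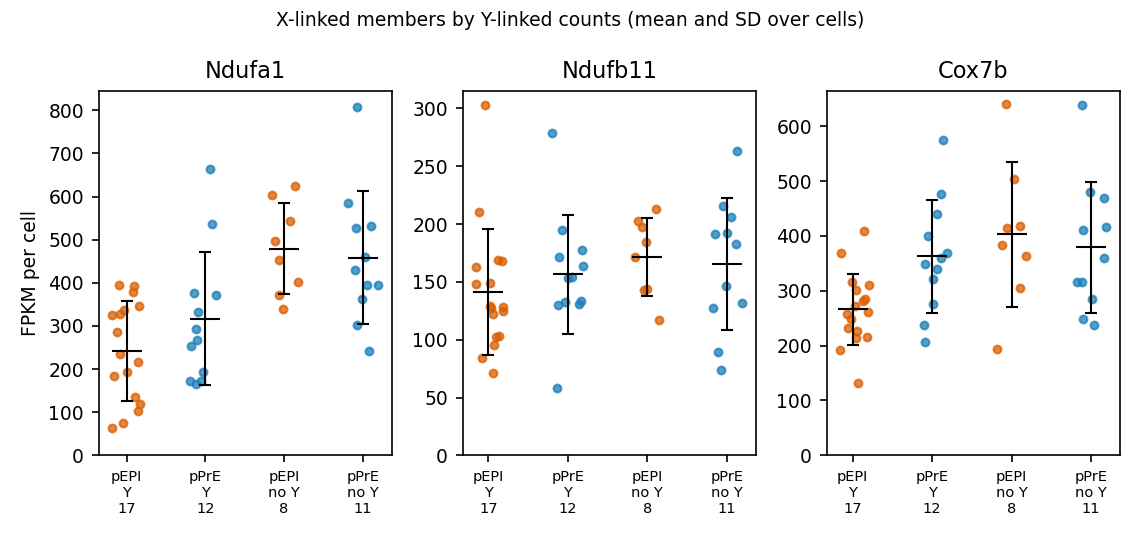
Level of the 3 X-linked members in each cell, in FPKM, by branch and by the presence of Y-linked counts, with the mean and SD over cells in black and the number of cells under each column. For Ndufa1 the cells without Y-linked counts centre on 467 FPKM and those with them on 273 FPKM, and the columns of Ndufb11 overlap.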

How the data were processed

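Smart-seq2 libraries of 48 E3.75 ICM cells were analysed. The deposited values are whole-number counts per Ensembl 87 gene, which the authors made with htseq-count from alignments to mm10. STAR and HTSeq are named without versions in the submitters' processing notes, and libraries under 500000 mapped reads were left out by the authors. Multi-mapping and strand settings are not given in the sources used here.

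FPKM was computed from the counts, the exon union of each gene in GENCODE M21 (GRCm38) and median-of-ratios library sizes. Genes without a length (259) held 0.0146% of counts. The branches are those of the study's dendrogram, read by eye. With 1 sample, no test was run, and a ratio of means past 1.5-fold at a mean of at least 5 FPKM stood in for a call. Counting intervals (95%) of ratios take their width from an exact binomial interval on the summed counts. Depth ran from 1718970 to 7342785 counts per cell. The libraries carry no molecular identifiers, so reads are not independent molecules and intervals cover counting error only.

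Copies were sought with blastn 2.17.0 (megablast, identity of at least 98%, alignments of at least 50 bases) of each member's principal transcript against all GENCODE M21 transcripts. Of the genes that fit the rule, 1 second Atp5o identifier was not among the counted genes. Named genes are the mitochondrially encoded members, Sdha to Sdhd, the highest and lowest subunit per complex, the 5 largest ratios on each side, the isoform families, the X-linked members and those without counts. Others were chosen after their values were seen. The members and lists were chosen with earlier results of these data known. The script for the ratios was checked on simulated counts with known folds, from which no value is given. Alternatives covered library size, thinning, leaving out each well letter, Y-linked counts, grouping by PC1, the summary, the minimum and the fold, and those on copies were chosen after seeing the data. Scripts ran in Python 3.11.15 with scipy 1.17.1, pandas 2.3.3 and numpy 2.4.6. Some results are not reported here.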

Additional observations from a re-analysis of the deposited data

How the results depend on the processing

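The median mitochondrially encoded share of member counts was 57.9% and stayed between 57.4% and 58.1% as each well letter was left out. Per length, with FPKM in place of counts, it was 63.5%. With the counts of the 7 chromosome 1 copies added, a setting chosen after seeing the data, it was 58.2%. These copies held 95048 counts, against 2391498 on mt-Co1 alone, so the share had little room to move. Any reads with several placements that the counter left out stay missing in this setting. The log2 ratio of the mitochondrial to nuclear ratio was below 0 in all 14 settings tried, which reuse the same cells. Within letter A alone it was 0.12. That of the nuclear sum was above 0 in 14 of 15, with -0.02 in the cells without Y-linked counts. That of the mitochondrial sum had no stable sign, above 0 in 8 of 15 settings and at 0.00 for the 6 members without an annotated copy, a setting chosen after seeing the data. The median log2 ratio of nuclear members was 0.11 as reported and above 0 in all 19, but 0.01 where Y-linked counts were absent. When the branches were compared within each well letter and the 6 log2 ratios were averaged, also chosen after seeing the data, the nuclear sum gave 0.08, the mitochondrial sum -0.02 and their ratio -0.11. The correlation of the sums was 0.32 in the cells with and -0.13 in the cells without Y-linked counts, and between 0.084 and 0.435 as each letter was left out.

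The number of nuclear members past 1.5-fold was small and moved easily. It was 1 as reported and 0 to 3 as each letter was left out. It was 3 in the cells with and 3 in the cells without Y-linked counts, 0 with cells grouped by the sign of PC1, 6 by the difference of mean log2(FPKM + 1), 4 with a minimum of 1 FPKM and 5 with no minimum, 0 at 2-fold and 7 at the lower fold tried. The causes of these shifts were not tested. Members with counts in 1 to 13 cells carry no ratio here, and with 3 embryos that cannot be told apart no difference can be set against the spread between embryos.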
